A study of Mus musculus with 12 samples.

Results

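*Vmn1r216*, *A830018L16Rik*, *Mmd2*, *Rasef* and *Fcmr* are 5 genes whose mean array signal differed between Lr11 -/- and wild-type (WT) adipose tissue. None of them lies on chromosome 9, the chromosome of *Lr11* itself (gene symbol *Sorl1*). They are 5 of 20660 named genes on the array and are read from 6 of its 55681 probes, 1 probe each except for *A830018L16Rik*, which has 2. They were picked for their genotype difference averaged over brown and white fat, so that difference is given below as a description, without a test. The contrasts that the choice did not use are the difference between the depots and the difference between the genotype effects of the depots, and only these were tested. Ordered by the p of that contrast, which weighs a difference against its spread, they were the first 5 named genes off chromosome 9. By size alone they were not the first, with places between 29 and 369 over all tested probes for the probe that placed each gene. The last of them, *Fcmr*, had a log2 difference of -1.75, and the next genes outside were *Bcat2* on chromosome 7 with 1.59 and *Dclre1c* on chromosome 2 with -1.96.

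RNA of subcutaneous white adipose tissue (scWAT) and brown adipose tissue (BAT) was hybridised to one-colour arrays, 12 in all, with 3 arrays of WT scWAT, 3 of Lr11 -/- scWAT, 3 of WT BAT and 3 of Lr11 -/- BAT. All animals were 12-week-old males of the C57Bl6/J strain on a high-fat diet (HFD) with 60% of its calories from fat, and WT mice were littermates of the Lr11 -/- mice, for which the labels name no tissue-specific driver. The labels place the diet both from weaning and at 4 weeks of feeding, which leaves its start unsettled, and they do not say whether the arrays of a group came from separate animals, so the p-values measure only the spread between these arrays. Values are log2 intensities after subtraction of the 75th percentile of each array, called scaled log2 intensity below, so a value of 0 is the intensity at that percentile and a negative value is a dimmer spot.

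LR11, also called SorLA, is a large sorting receptor of the Golgi and the endosomes that is also shed as a soluble protein. The 5 genes have no shared pathway in textbook accounts. *Vmn1r216*, on chromosome 13, encodes a vomeronasal type 1 receptor, one of a large family of G protein-coupled receptors known from the pheromone-sensing neurons of the vomeronasal organ. *Mmd2*, on chromosome 5, encodes a multi-pass membrane protein of the progestin and adipoQ receptor (PAQR) family, which also holds the adiponectin receptors. *Rasef*, on chromosome 4 and also named *RAB45*, encodes a long Rab-type GTPase that carries calcium-binding EF hands. *Fcmr*, on chromosome 1 and earlier named *Faim3* or *Toso*, encodes the Fc receptor for immunoglobulin M and is best known from B lymphocytes. *A830018L16Rik*, a protein-coding gene on chromosome 1 known by its clone name, has 1615 annotated genes between it and *Fcmr*.

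The windows before the annotated start of *Vmn1r216*, *Mmd2* and *Fcmr* are shown because they set the base composition of these promoters side by side. RefSeq windows on build GRCm38.p6 were at hand for 4 of the 5 genes, 250 bases each, and capitals mark matches to any of 6 motifs searched on both strands, which were the TATA box TATAAA, the CCAAT box CCAAT, the GC box GGGCGG, the E-box CACGTG, the cAMP response element TGACGTCA and the octamer motif ATTTGCAT.
Vmn1r216, chr13:23098899-23099148, plus strand: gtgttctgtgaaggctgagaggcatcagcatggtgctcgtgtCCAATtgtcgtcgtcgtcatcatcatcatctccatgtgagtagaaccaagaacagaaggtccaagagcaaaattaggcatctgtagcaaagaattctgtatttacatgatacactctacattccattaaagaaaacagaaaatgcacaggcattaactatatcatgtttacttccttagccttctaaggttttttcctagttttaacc
Mmd2, chr5:142608753-142609002, minus strand: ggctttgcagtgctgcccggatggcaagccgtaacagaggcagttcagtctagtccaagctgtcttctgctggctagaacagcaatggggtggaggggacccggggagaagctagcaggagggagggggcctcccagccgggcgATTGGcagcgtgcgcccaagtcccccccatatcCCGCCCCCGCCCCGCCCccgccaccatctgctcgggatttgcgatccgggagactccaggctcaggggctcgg
Fcmr, chr1:130865527-130865776, plus strand: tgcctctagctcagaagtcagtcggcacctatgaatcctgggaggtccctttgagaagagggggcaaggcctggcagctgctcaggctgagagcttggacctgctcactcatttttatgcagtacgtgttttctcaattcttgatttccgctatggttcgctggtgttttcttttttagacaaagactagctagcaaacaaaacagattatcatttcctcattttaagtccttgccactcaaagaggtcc
The *Mmd2* window held 67.2% G or C and 15 CpG pairs, and 86.5% of the 32851 windows in the table had a lower GC content. The *Vmn1r216* window held 39.6% G or C and the *Fcmr* window 46.4%, with 4 CpG pairs in each, against a median of 52.4% and 6 pairs over all windows. The annotated *Vmn1r216* start is its ATG codon, so its window lies directly before the coding sequence. The *Rasef* window, with 70.8% G or C and 34 CpG pairs, lies inside the annotated span of the gene and is not printed. *Mmd2* had 1 match to CCAAT and 3 to GGGCGG, *Vmn1r216* had 1 match to CCAAT, and *Rasef* and *Fcmr* had none of the 6 motifs. CCAAT was in 33.8% of all windows, GGGCGG in 32.7%, TATAAA in 12.4%, CACGTG in 6.0%, TGACGTCA in 1.5% and ATTTGCAT in 1.6%. With no match in *Rasef*, none could be shared with *Vmn1r216*, so nothing about the likeness of their levels is read from the motifs.

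The genotype labels were checked first on *Sorl1*. WT scWAT averaged 1.01 ± 0.13 (SD, n = 3) on the scaled log2 scale and Lr11 -/- scWAT -3.33 ± 0.40, while the BAT means were 0.68 ± 0.55 for WT and -2.96 ± 0.85 for Lr11 -/-, so all 6 Lr11 -/- arrays lay below all 6 WT arrays. The depot labels were checked on the brown adipocyte markers, whose summed level on the log2 scale was 11.4 to 11.7 in WT BAT and 2.35 to 8.05 in WT scWAT, and all 10 adipocyte markers were above background on each of the 12 arrays. *Ucp1*, the uncoupling protein of brown fat, averaged 9.76 in WT BAT and -2.08 in WT scWAT. Skeletal muscle markers varied widely inside every group, with a summed log2 level of 0.54 to 10.5 in WT BAT and 1.58 to 12.2 in WT scWAT. In the arrays, 4 belonged to a first array series, 1 per group, and 8 to a second, on 3 slides in all. The first series had 1 slide for scWAT and another for BAT, and the second series shared 1 slide. Among the WT scWAT arrays replicate 2 stood apart, with a mean adipocyte marker level of 3.24 against 6.73 and 5.44 and a mean macrophage marker level of 4.19 against 2.54 and 1.79. The array of Lr11 -/- scWAT replicate 1 stood apart from its group, with a summed brown adipocyte level of 8.65 against 11.7 and 11.8 and a summed epithelial level of 5.98 against 0.38 and -0.07, and without it the genotype contrast over all probes called 3528 probes in place of 39.

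*Vmn1r216* had its lowest signal in WT tissue of both depots and its highest in both Lr11 -/- tissues. In WT scWAT its scaled log2 intensities were -3.53, -4.07 and -4.79, and only the first of these was well above background, the scanner software's call for a spot brighter than its surroundings. In Lr11 -/- scWAT they were -0.55, -0.67 and -0.46, all well above background. The lowest Lr11 -/- array lay 2.86 log2 units above the highest WT array, and the mean difference was 3.57 (SE 0.35), or 11.9-fold. In BAT the WT arrays read -3.72, -3.84 and -3.56 and the Lr11 -/- arrays -0.51, -1.42 and -1.61, all 6 well above background. The groups were again apart, by 1.95 log2 units, and the means differed by 2.53 (SE 0.35), or 5.76-fold. Even across the depots no Lr11 -/- array reached down to a WT array, with 1.92 log2 units between them. Such a full separation upward was found for 58 of the 32121 probes tested, 0.181%, and downward for 73, 0.227%, and because the genes were picked on this contrast nothing is read from these shares.

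*Rasef* was at the limit of the array in WT fat and measurable in Lr11 -/- fat. WT scWAT gave -7.08, -6.29 and -6.75 and WT BAT -5.54, -6.49 and -4.94, and none of these 6 values was well above background. Lr11 -/- scWAT gave -1.83, -3.47 and -3.30 and Lr11 -/- BAT -3.62, -3.84 and -2.82, all well above background. The groups did not overlap in either depot, with gaps of 2.83 and 1.10 log2 units. The WT level is only a bound, so the Lr11 -/- signal is given as at least 3.88-fold higher in scWAT and at least 2.30-fold in BAT. For these folds the dim side is set on each array at the lowest signal among probes well above background, or at the probe's own signal if higher. That floor is nominal, since brighter spots can miss the call. *Vmn1r216* on WT scWAT replicate 2 missed it at -4.07, over a floor of -4.43. With normexp, described below, the differences were 1.25 and 0.53 log2 units, so these folds are not strict minima. Other folds given below as at least use the same floor. At the 75th percentile scaling the measured means differed by 3.84 (SE 0.51) and 2.23 (SE 0.51) log2 units. The highest *Rasef* value, -1.83, was on Lr11 -/- scWAT replicate 1, the array on which 10 of 10 epithelial markers were above background, against 6 of 10 on both other arrays of that group. Over the other groups the summed epithelial level was -0.32 to 3.50 in WT scWAT, -0.66 to -0.33 in WT BAT and -0.67 to -0.27 in Lr11 -/- BAT. In the genotype average 0 of 6 tested epithelial markers were called, where 0.136% of all named genes were, with a median of 0.74. Without that array the genotype average of *Rasef* was 2.77 in place of 3.03, and the part of epithelial cells in its level was not tested. In scWAT, 39 probes (0.121%) were well above background on 3 of 3 Lr11 -/- arrays and 0 of 3 WT arrays, in BAT 34 (0.106%), and *Rasef* was the only tested probe with this pattern in both depots (1 of 32121, 0.00311%). The gene was picked on the genotype contrast and its probe was tested only through the Lr11 -/- groups, so nothing is read from these shares.

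*Fcmr* went the other way. The WT arrays read -2.52, -3.30 and -3.16 for scWAT and -2.50, -2.86 and -2.33 for BAT, all well above background. In Lr11 -/- tissue it was -4.99, -4.55 and -4.53 in scWAT, none well above background, and -4.55, -3.84 and -4.69 in BAT, where only the second array was. All 6 Lr11 -/- arrays lay below all 6 WT arrays, by 0.53 log2 units at the closest point. The WT signal was at least 2.93-fold higher in scWAT and, with 1 of 3 Lr11 -/- arrays measured and the same floor on the others, at least 3.21-fold higher in BAT. On the log2 scale the differences of Lr11 -/- from WT were -1.70 (SE 0.30) and -1.80 (SE 0.30).

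*Mmd2* differed between the depots as well as between the genotypes, and its 4 groups formed 4 steps. WT scWAT read -7.19, -6.56 and -7.04, with no array well above background, and Lr11 -/- scWAT read -3.54, -4.10 and -3.36, with all 3. WT BAT read -2.16, -1.16 and -2.09 and Lr11 -/- BAT -0.04, -1.15 and 0.18, all above background. In scWAT the genotypes were 2.45 log2 units apart and the Lr11 -/- signal was at least 2.23-fold higher. In BAT the separation was 0.013 log2 units between the lowest Lr11 -/- and the highest WT array, less than the spread inside either group, and the ranges overlapped under quantile normalization, median scaling and normexp. The BAT means differed by 1.47 (SE 0.40), or 2.77-fold.

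The 2 probes of *A830018L16Rik* gave different accounts of scWAT. The dimmer probe, A_52_P460704, which carried the genotype difference, read -6.44, -6.49 and -6.98 in WT scWAT, none above background, and -2.64, -1.60 and -1.67 in Lr11 -/- scWAT. The brighter probe, A_52_P59400, read -4.07, -4.44 and -5.90 in WT scWAT, with the first above background, and -5.17, -1.81 and -1.48 in Lr11 -/- scWAT, with the second and the third above it. Replicate 1 of Lr11 -/- scWAT was thus inside the WT range on the brighter probe and far above it on the dimmer one. The dimmer probe was at least 7.22-fold higher in Lr11 -/- scWAT, and the measured means of the brighter one differed by 1.98 (SE 0.83) log2 units with overlapping ranges.

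In BAT neither *A830018L16Rik* probe separated the genotypes. The dimmer probe read -2.90, -2.33 and -4.06 in WT and -2.10, -2.81 and -1.96 in Lr11 -/-, a difference of 0.80 (SE 0.45), and the brighter one read -2.22, -1.60 and -2.10 in WT and -1.55, -2.02 and -1.61 in Lr11 -/-, a difference of 0.25 (SE 0.83). Over the 12 arrays the probes correlated with r = 0.77. Averaged over the depots the brighter probe differed by 1.12 (SE 0.59) and was place 8449 in that order by p over all tested probes, so the gene stands among the 5 through its dimmer probe alone.

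**Figure D1:**
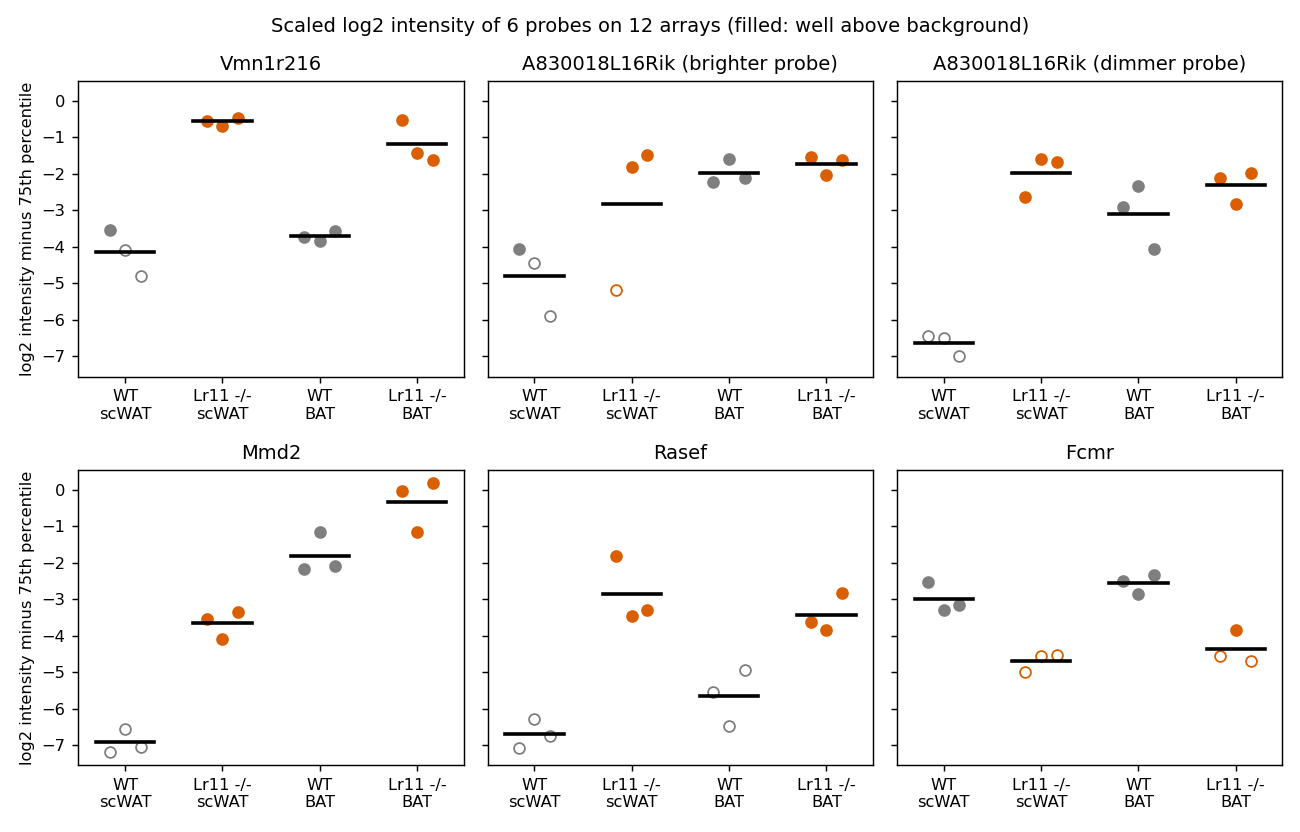
Scaled log2 intensity of the 6 probes by genotype and depot, 3 arrays per group. Each circle is 1 array, filled where the spot was well above background and open where it was not, and black lines are group means. For Vmn1r216 and Rasef every Lr11 -/- array is above every WT array, for Fcmr every one is below, and Mmd2 climbs from -6.93 in WT scWAT to -0.34 in Lr11 -/- BAT.

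Counted together, 5 of the 6 probes had no overlap between the genotypes in scWAT and 4 of the 6 in BAT, against 20.4% and 12% of all tested probes. No overlap in the same direction within both depots held for 4 of the 6 (*Vmn1r216*, *Mmd2*, *Rasef* and *Fcmr*) and for 2.03% of all probes. Under quantile normalization, median scaling and normexp the counts in BAT and within both depots were 3 of the 6. The genes were picked on the genotype contrast of these same arrays, so nothing is read from these counts against the shares. The genotype average contrast, Lr11 -/- minus WT over both depots, called 39 of the 32121 probes (0.121%) by limma after Benjamini-Hochberg adjustment at 0.05. Of these, 21 (0.0654%) were higher and 18 (0.056%) lower in Lr11 -/- tissue, and 6081 probes (18.9%) had an unadjusted p under 0.05. All 5 genes are among these calls by construction. Of 26 called probes with a gene name, 10 lay on chromosome 9 (0.951% of the 1051 tested there) and 16 elsewhere (0.0883% of 18130), for 25 genes, 16 of them off chromosome 9.

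The sizes of these differences were lower with another treatment of the background. With quantile normalization in place of the 75th percentile the genotype averages were 3.11 for *Vmn1r216*, 3.00 for *Rasef*, 2.28 for *Mmd2*, 2.71 for the dimmer *A830018L16Rik* probe and -1.65 for *Fcmr*, against 3.05, 3.03, 2.37, 2.74 and -1.75. With normexp and an offset of 50, applied to median in place of processed signals, they were 1.67, 0.89, 0.93, 1.02 and -0.53 in the same order. The offset is added to every signal before the log, which by itself makes differences between dim spots smaller. *Vmn1r216*, *Rasef* and *Fcmr* kept all 6 arrays of one genotype apart from all 6 of the other under each of the 4 treatments of the signal, *Fcmr* by as little as 0.032 log2 units and *Rasef* by 0.042 with normexp. Within the first array series, with 1 array per group, the *Vmn1r216* difference was 2.98 in scWAT and 3.21 in BAT, and within the second it was 3.86 and 2.18. *Rasef* gave 5.25 and 1.91 in the first series and 3.14 and 2.38 in the second. *Fcmr* gave -2.48 and -2.06, then -1.31 and -1.67, and *Mmd2* gave 3.65 and 2.13, then 3.07 and 1.14. The direction was the same in both series and both depots for these 4 genes. They were picked on these same arrays, so this sameness and the ranges that follow are descriptions only. Leaving out each array in turn kept the genotype average of *Vmn1r216* between 2.88 and 3.20, of *Rasef* between 2.77 and 3.21, of *Mmd2* between 2.24 and 2.57 and of *Fcmr* between -1.88 and -1.63. The brighter *A830018L16Rik* probe turned, with -1.11 in scWAT of the first series and 3.53 in the second.

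**Figure D2:**
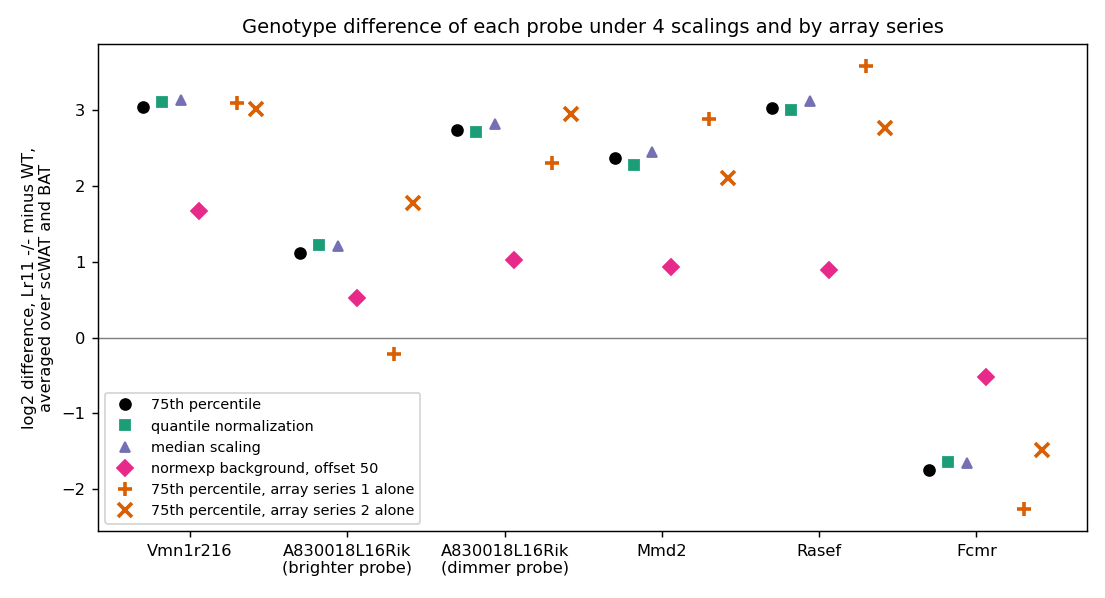
Genotype difference (log2, Lr11 -/- minus WT, averaged over scWAT and BAT) of the 6 probes under 4 treatments of the signal over all 12 arrays, and within each array series at the 75th percentile scaling. Points are mean differences without error bars. Normexp is nearest to 0 among the 4 treatments everywhere, and the brighter A830018L16Rik probe alone changes sign, at -0.22 in the first series.

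The depot contrast, BAT minus scWAT averaged over the genotypes, was independent of the choice of the genes apart from a shared estimate of the spread, and 7778 of 32121 probes passed it (24.2%). *Mmd2* and both *A830018L16Rik* probes passed, 3 of the 6, all higher in BAT, as were 5002 of all probes (15.6%), while 2776 (8.64%) were lower. The *Mmd2* difference was 4.23 (SE 0.28, 95% interval 3.60 to 4.85, limma adjusted p = 8.5e-05). WT BAT was at least 8.10-fold brighter than WT scWAT, where no array was above background, and Lr11 -/- BAT was 10.1-fold brighter than Lr11 -/- scWAT, with all 6 arrays measured. No BAT array overlapped a scWAT array of its genotype, with gaps of 4.39 and 2.21 log2 units. Over the alternatives the *Mmd2* difference lay between 1.89 and 4.43, and the limma adjusted p was 0.0087 or less wherever the setting gave one (the first array series alone, with 1 array per group, gave none).

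For *A830018L16Rik* the depot difference was 1.61 (SE 0.32, limma adjusted p = 0.0083) on the dimmer probe and 1.96 (SE 0.59, limma adjusted p = 0.036) on the brighter one. The dimmer probe was at least 3.31-fold brighter in WT BAT than in WT scWAT, and in Lr11 -/- tissue it differed by -0.32 log2 units with overlapping ranges. The brighter probe differed by 2.83 log2 units in WT tissue and by 1.09 in Lr11 -/- tissue, where the ranges overlapped. With the slide as a block neither probe passed, with limma adjusted p = 0.079 and 0.20. In that fit the arrays of the first series, whose slides each held a single depot, add nothing to the depot comparison. The brighter probe also lost its call in 7 of the 12 refits that left out 1 array.

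The other 3 genes did not pass between the depots. The difference was -0.10 for *Vmn1r216* (95% interval -0.64 to 0.45, limma adjusted p = 0.79), 0.25 for *Rasef* (-0.55 to 1.04, limma adjusted p = 0.64) and 0.38 for *Fcmr* (-0.09 to 0.85, limma adjusted p = 0.20). Inside each genotype their depot ranges overlapped. The 4 groups of *Vmn1r216* were thus apart between the genotypes, the contrast on which it was picked, but not within them.

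The interaction, the Lr11 -/- minus WT difference in BAT minus the same in scWAT, was called by limma for 0 of 32121 probes, with 3537 (11%) at an unadjusted p under 0.05. All 6 probes had a negative estimate, and 3 of the 6 had an unadjusted p under 0.05. The dimmer *A830018L16Rik* probe had -3.87 (95% interval -5.27 to -2.46, limma adjusted p = 0.22), *Mmd2* had -1.79 (-3.04 to -0.55, limma adjusted p = 0.40) and *Rasef* had -1.61 (-3.20 to -0.03, limma adjusted p = 0.45). The WT scWAT signals of these 3 were bounds rather than levels, and with normexp the *Mmd2* value was 0.35. *Vmn1r216* had -1.04 (-2.13 to 0.05, adjusted p = 0.47), and *Fcmr*, whose genotype difference was of like size in the depots, had -0.10 (-1.03 to 0.84, adjusted p = 0.95), both by limma. Without Lr11 -/- scWAT replicate 1, both *A830018L16Rik* probes passed, with -4.20 (limma adjusted p = 0.012) and -2.91 (limma adjusted p = 0.040). Without WT scWAT replicate 3 the dimmer probe passed alone, with -3.69 (limma adjusted p = 0.049).

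**Figure D3:**
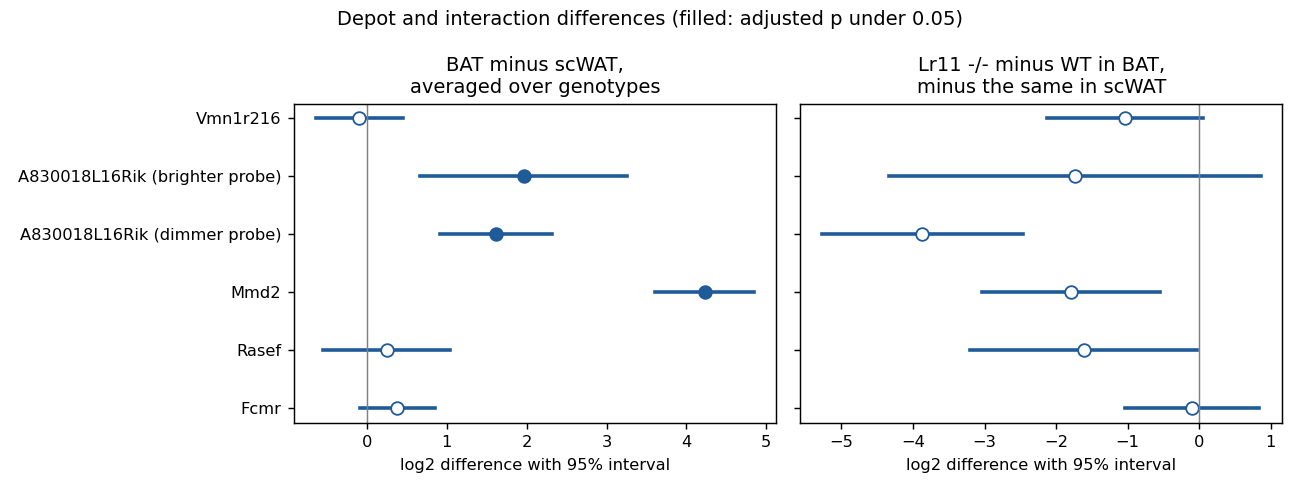
Depot difference (left) and interaction (right) of the 6 probes on the log2 scale, with 95% intervals from the limma fit over 12 arrays, filled where the adjusted p was under 0.05. On the left Mmd2 stands at 4.23 and the A830018L16Rik probes at 1.96 and 1.61, while the intervals of Vmn1r216, Rasef and Fcmr include 0, and on the right no circle is filled.

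The families of these genes had 0 calls in the genotype average contrast over all 12 arrays, in which 0.136% of the 14710 named genes tested were called when each was read from its brightest probe (25.4% between the depots). In that genotype contrast 18.9% of all probes had an unadjusted p under 0.05. Of 165 other vomeronasal type 1 receptor genes on the array, 17 had a tested probe and 0 were called, 2 of them with an unadjusted p under 0.05, with a median difference of 0.10 and a range of -1.77 to 0.83, against a median of 0.05 over all named genes tested. Of 176 probes to these receptors, 116 were above background on no array. Between the depots 3 of the 17 rose in BAT and 1 fell, among them *Vmn1r231* with 1.77 (limma adjusted p = 0.0095) and *Vmn1r227* with 1.60 (limma adjusted p = 0.0077). *Vmn1r231* was well above background on 0 of 3 scWAT arrays of either genotype, 2 of 3 WT BAT arrays and 3 of 3 Lr11 -/- BAT arrays. *Vmn1r227* was so on 1 of 3 WT and 2 of 3 Lr11 -/- scWAT arrays. Both sizes thus rest partly on spots at background. In the PAQR family 0 of 7 tested genes were called with a median of 0.68 and 3 at an unadjusted p under 0.05, and *Mmd*, the closest relative of *Mmd2*, had a genotype difference of 0.68 (SE 0.67). Among Rab GTPases 0 of 39 tested genes were called, with a median of 0.07 and an unadjusted p under 0.05 for 5. These counts moved with single arrays, as did the count over all probes, which ran from 8 to 3528 over the left-out arrays. Without Lr11 -/- scWAT replicate 1, 2 vomeronasal receptors and 3 Rab GTPases were called, where 3528 of all 32121 probes were. Without WT scWAT replicate 3, 1 PAQR gene and 2 Rab GTPases were called. Without WT scWAT replicate 1, 1 receptor and 1 PAQR gene were, and without WT scWAT replicate 2, 1 Rab GTPase was. Nothing about the families is read from these counts. 

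The genes next to the 5 were described in the same contrast. The 10 genes on either side of each one made 100 genes, of which 39 were on the array, 21 were tested, 0 were called in the genotype average contrast by limma and 7 had an unadjusted p under 0.05, where 0.136% of all named genes were called and 18.9% of all probes had such a p. Without Lr11 -/- scWAT replicate 1, where 3528 of all 32121 probes were called, 3 neighbours of *Mmd2*, 2 of *Fcmr* and 1 of *A830018L16Rik* were. Without WT scWAT replicate 1 a neighbour of *Vmn1r216* was called. Over the left-out arrays 8 to 3528 of all probes were called, so nothing about the neighbours is read from these counts. Over all 12 arrays the differences of the neighbours ran from -0.99 to 1.11, with a median of 0.01 and a lowest limma adjusted p of 0.16. The receptor genes around *Vmn1r216* were mostly at background. *Vmn1r215*, the next gene on one side, stayed between -7.01 and -6.22 and was above background on 0 of 12 arrays, and the probes to *Vmn1r213*, *Vmn1r218* and *Vmn1r220* were also above background on none. *Vmn1r217*, 2 genes away on the other side, was measured on all 12 arrays with its brighter probe, between -0.98 and -0.37, and its genotype difference was -0.02 (SE 0.15). Next to *Fcmr*, *Pigr*, the receptor that carries immunoglobulins across epithelia, had -0.47, and the cytokine gene *Il24* had 0.61, with limma adjusted p = 0.66 and 0.19. On the side of *Mmd2*, *Tnrc18* had -0.98 and *Slc29a4*, a monoamine transporter gene, had 1.11, with limma adjusted p = 0.16 and 0.23. These neighbours were named after their values were seen.

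**Figure D4:**
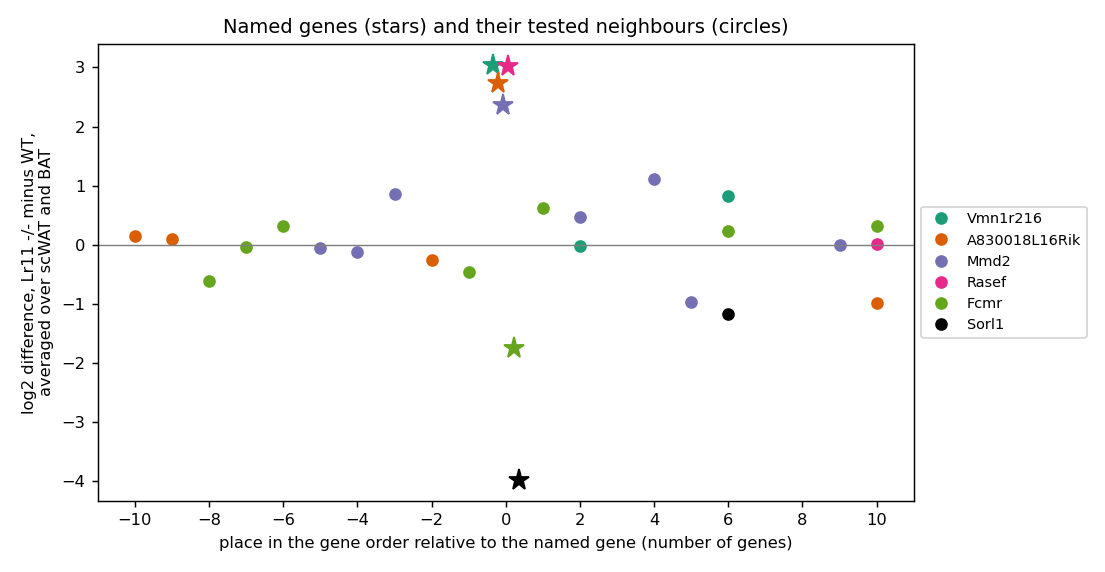
Genotype difference (log2, Lr11 -/- minus WT, averaged over scWAT and BAT) of the 5 genes and of Sorl1 (stars, shifted slightly sideways to part them) and of the tested genes among the 10 on either side (circles), by place in the gene order. A830018L16Rik is drawn from its dimmer probe. Neighbours of the 5 lie between -0.99 and 1.11, and the stars lie at 2.37 to 3.05, at -1.75 for Fcmr and at -3.99 for Sorl1.

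*Fcmr* was read beside markers of the cells it is best known from, and in whole fat fewer B lymphocytes and less RNA per cell cannot be told apart. Of 12 B lymphocyte markers, 11 were on the array and 8 were tested. All 8 had a lower mean in Lr11 -/- tissue, with a median of -0.54, and *Fcer2a* (-0.05), *Cd22* (-0.15) and *Cr2* (-0.19) were nearest to 0. Of the 8, 3 had an unadjusted p under 0.05 by limma and 0 were called. Such a p was found for 18.9% of all probes, and 0.136% of all named genes were called. The summed level of the list on the log2 scale was 2.51 to 3.26 in WT scWAT against 2.07 to 2.33 in Lr11 -/- scWAT, and 1.999 to 2.37 in WT BAT against 1.90 to 2.08 in Lr11 -/- BAT. On single arrays 6 to 10 of the 11 were well above background, and *Cd79a*, *Pax5* and *Blk* passed the filter in no group. Their part in the *Fcmr* result was not tested.

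*Ms4a1* and *Cd79b*, the markers with the largest differences, were named after their values were seen. *Ms4a1*, which encodes the surface antigen CD20, had a genotype difference of -1.93 (limma adjusted p = 0.10), and all 6 of its Lr11 -/- arrays lay below all 6 WT arrays. *Cd79b*, a chain of the B cell receptor, had -1.11 (limma adjusted p = 0.12). The ranges of *Cd79b* were apart in scWAT and overlapped in BAT. Without Lr11 -/- scWAT replicate 1, 3 genes of the list were called, where 3528 of all 32121 probes were. Without WT scWAT replicate 3, 1 gene of the list was called. Over the left-out arrays 8 to 3528 of all probes were called. T lymphocyte markers had a median of -0.04 with 0 of 10 called, and macrophage markers -0.42 with 0 of 9. Of the Fc receptor and immunoglobulin M partner genes, 0 of 15 tested were called, with a median of -0.41, and 1 was called without Lr11 -/- scWAT replicate 1.

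**Figure D5:**
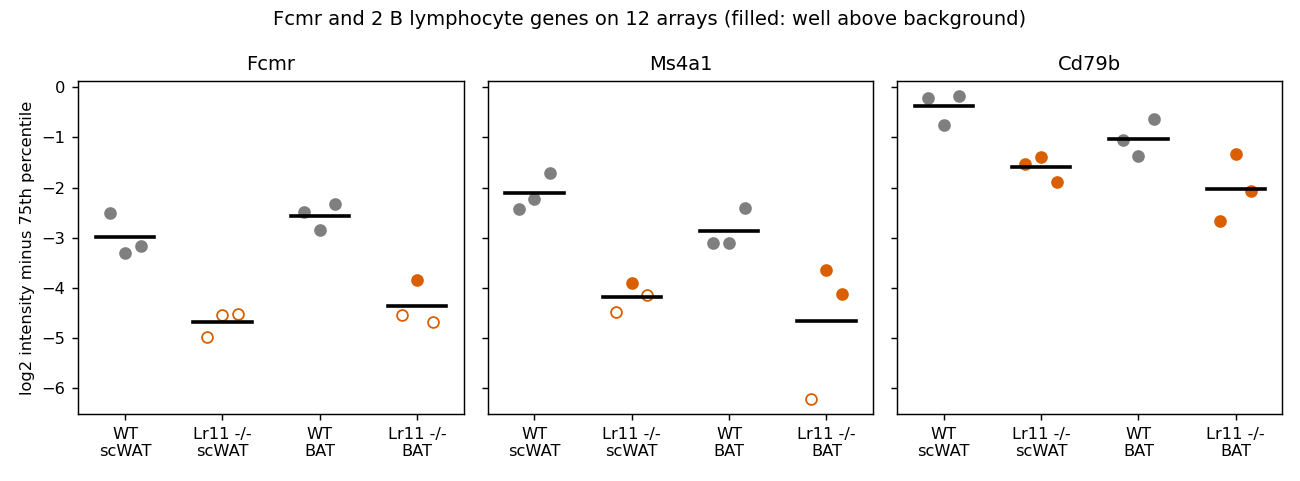
Scaled log2 intensity of Fcmr and of the B lymphocyte genes Ms4a1 and Cd79b on 12 arrays, 3 per group, with group means as black lines and open circles where the spot was not well above background. Fcmr and Ms4a1 are lower on every Lr11 -/- array than on any WT array, and Cd79b overlaps between the genotypes in BAT.

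Beside *A830018L16Rik* and *Mmd2*, the genes with a depot difference, the brown adipocyte markers moved too. Their summed log2 level was 2.35 to 8.05 in WT scWAT, 8.65 to 11.8 in Lr11 -/- scWAT, 11.4 to 11.7 in WT BAT and 11.6 to 11.8 in Lr11 -/- BAT. Between the depots 6 of the 10 markers rose in BAT by limma, where 15.6% of all probes did, and *Ucp1* rose by 6.83 (adjusted p = 0.0085). In the genotype average 0 of 10 were called, where 0.136% of all named genes were, with a median of 2.94. An unadjusted p under 0.05 was found for 8 of the 10 and for 18.9% of all probes. Without Lr11 -/- scWAT replicate 1, 6 of the markers were called, where 3528 of all 32121 probes were, and without WT scWAT replicate 3, 4 were. Over the left-out arrays 8 to 3528 of all probes were called. The part of brown adipocytes in the values of both genes was not tested. Skeletal muscle markers had 0 of 4 called with a median of -1.84, Schwann cell and nerve markers 0 of 9 with 0.31 and adipocyte markers 0 of 10 with 0.89.

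Likeness over the 12 arrays, which share scaling, group means and array series, is given by Pearson's r as a description. *Vmn1r216* was most like *Rasef* (r = 0.90), *Bcat2* (0.90), a mitochondrial aminotransferase of branched-chain amino acids, and *Apoc3* (0.86), an apolipoprotein gene on chromosome 9. *Rasef* was most like *Vmn1r216*, *2900052N01Rik* on chromosome 9 (0.87) and *Bcat2* (0.86). After subtraction of the group means the correlation of *Vmn1r216* with *Rasef* was -0.09, so it was carried by the groups. *Fcmr* was most like 3 genes of chromosome 9, *Nxpe4* (0.91), *Sorl1* (0.90) and *Car12* (0.89), a carbonic anhydrase gene. Against *Sorl1* the correlation was -0.98 for *Vmn1r216*, -0.92 for *Rasef* and -0.47 for *Mmd2*. After subtraction of the group means these values were -0.64, -0.29 and 0.10, and the value for *Fcmr* was 0.04. The genes were picked for their genotype difference and *Sorl1* follows the genotype, so nothing is read from the values over the 12 arrays. *Mmd2* was most like the calcium channel gene *Orai3* (0.97), the transcription cofactor gene *Vgll4* (0.97) and *2010109A12Rik* (0.96). The brighter *A830018L16Rik* probe was most like *Sod2* (0.99), the mitochondrial superoxide dismutase, *Pgam1* (0.99), a glycolytic mutase, and *Timm10b* (0.99), a mitochondrial import gene. The dimmer one was most like *Nabp1* (0.95), *Coq4* (0.95), a gene of coenzyme Q synthesis, and *Polg* (0.94), the polymerase of mitochondrial DNA.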

How the data were processed

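RNA of 12 adipose tissue samples, 3 per group, was measured on Agilent one-colour mouse arrays. The authors scanned the arrays and extracted spots with Agilent Feature Extraction 10.10 (10.10.1.1 per the file headers), and the deposited values used here are processed signal intensity per spot, already background-corrected by that software. The deposited series table held the same intensity values, with a largest difference of 0. Of 59305 spots per array, 128 to 181 flagged as outliers were dropped and spots were averaged over 55681 probes. On each array 32377 to 37002 spots were well above background and 0 saturated, and the number of arrays limits the precision. RefSeq accessions on 28685 probes were matched to the RefSeq gene table of GRCm38.p6, which named 27235, and the 5 genes were found by these names, with 0 unmatched. The array was designed on an older build, so that table served only for names, chromosomes and gene order.

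Values were log2 intensity minus the 75th percentile of the array. A probe was tested where every one of the 3 arrays of some group had it well above background (32121, and 6 of the 6 probes of these genes passed) with lmFit and eBayes of limma 3.58.1 in R 4.3.3, with 4 group means and Benjamini-Hochberg adjustment. The tests were checked on simulated data. A gene with several probes was read from its brightest, with each other probe beside it. Named genes were the 5 genes, Sorl1, the 3 genes most correlated with each probe, and list members or neighbours past the threshold; others were named after their values were seen, as the text says, or as a close relative of a gene. The genes and the lists were chosen with earlier results of these data known. Alternatives were other scalings, normexp with an offset of 50 on median signals, other filters, array series and slide as blocks or each series alone, other variance models and leaving out each array. Figures were drawn with matplotlib 3.10.9 in Python 3.11.15.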

Additional observations from a re-analysis of the deposited data

How the results depend on the processing

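No paired analysis was possible because the labels carry no replicate numbers. The first array series alone, with 1 array per group, gave values for single probes but no test and so no counts. The 7778 probes called between the depots became 1278 with the slide as a block, 4341 in the second array series alone and 4277 to 10069 without 1 array. With the slide as a block the first array series, whose slides each held a single depot, adds nothing to the depot comparison. The 0 interaction calls became 890 in the second series, 1092 with array weights and 0 to 1193 without 1 array, with 236 when WT scWAT replicate 3 was left out and the highest count when Lr11 -/- scWAT replicate 1 was. The 39 genotype calls became 19 with median scaling, 8 with normexp, 14 without a filter, 3 with probes above background on all 12 arrays, 18 with the series as a block, 2255 in the second series, 3478 with array weights and 8 to 3528 without 1 array. The cause of these changes was not tested. Of the 6 probes, the 3 called between the depots became 1 with the slide as a block, 2 to 3 without 1 array and 0 where all 12 arrays had to be above background, since none of the 6 was then tested. The 0 interaction calls among the 6 became 1 with array weights and 0 to 2 without 1 array. Signs turned for the Vmn1r216 depot difference (-0.27 to 0.053 over the left-out arrays) without WT scWAT replicate 1 (0.053) and without Lr11 -/- BAT replicate 3 (0.0098), for the Mmd2 interaction with normexp (0.35), for the Fcmr interaction (-0.36 to 0.067 over the left-out arrays) without WT scWAT replicate 2 (0.057), WT BAT replicate 3 (0.016) or Lr11 -/- BAT replicate 3 (0.067), and for the genotype average of the brighter A830018L16Rik probe in the first series (-0.22). The dimmer A830018L16Rik probe lost its depot call with normexp (0.53, limma adjusted p = 0.050) and in the second series alone (1.40, limma adjusted p = 0.074), and its interaction was called with array weights (-4.39, limma adjusted p = 0.033). Dim signals limit the sizes given for Rasef, Mmd2 and A830018L16Rik in WT scWAT.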
